A study of Homo sapiens with 2 samples.

Results

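Small nucleolar RNAs are short nuclear RNAs that act in complexes with proteins, and 61 of them were abundant enough in these libraries to be described as a set. The set holds every row of the count table whose gene name begins with SNORD, SNORA or SCARNA and whose mean level over both libraries was 1 CPM (read count divided by the sum of the column and scaled to counts per 1e6) or more. It numbered 61 of 493 rows with such names, among 57820 genes in all. Of these, 19 of 280 belonged to the box C/D class (SNORD), 33 of 193 to the box H/ACA class (SNORA) and 9 of 20 to the Cajal body class (SCARNA). The members were thus chosen by their mean CPM in these same libraries, and their levels and the order of the classes by level are given as a description, with no test.

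The RNA came from T47D, an established human breast carcinoma line that expresses the estrogen receptor and was grown from a metastasis. The cells carried the Y537S mutation of ESR1, the gene of estrogen receptor alpha, which leaves that receptor switched on when hormone is missing. The cultures were held in hormone-deprived medium and transfected with a control siRNA at 25 nM, and total RNA was sequenced after removal of ribosomal RNA. The labels gave 1 group of 2 replicate libraries and did not say whether these were separate cultures or how the mutant line was made, so the spread between the libraries may be technical. The library of replicate 1 held 41370662 counted reads and that of replicate 2 held 37198274. A count of 0 therefore allows up to 3 reads, or 0.0725 CPM in replicate 1 and 0.0806 CPM in replicate 2, for counting error only. All 8 luminal marker genes stood at 1 CPM or more in both libraries. The basal keratin KRT5 had 2 reads in replicate 1 and 6 in replicate 2, the mesenchymal gene VIM had 3 in each, and the immune gene PTPRC had 0 in replicate 1 and 17 in replicate 2. Other markers of those lists were not near 0: basal TP63 had 61 reads in replicate 1 and 30 in replicate 2, and the fibroblast collagen gene COL1A1 had 274 and 303.

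Box C/D RNAs pair with a target RNA and place the methyltransferase fibrillarin (FBL) for methylation of a ribose, mostly in ribosomal RNA. Box H/ACA RNAs guide dyskerin (DKC1), which turns uridine into pseudouridine. Cajal body RNAs carry box C/D or H/ACA structures, sometimes both in 1 molecule, and modify the small nuclear RNAs of the spliceosome in the Cajal body. A few members, among them U3 (the SNORD3 genes), U14 (SNORD14) and U17 (SNORA73), are needed for cleavage of the ribosomal RNA precursor. Most human members are trimmed out of introns of host genes after splicing, whereas the U3 genes are transcribed from promoters of their own.

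The sequences that follow are those of members that the results turn on. They are GENCODE release 29 transcripts of GRCh38, matched by gene identifier, and 59 of the 61 members had such a sequence. Capitals mark the searched letters. These were TGATGA (box C) within the first 20 bases, CTGA (box D) within the last 15 and ACA within the last 8, read on the transcript strand only. The box C window does not overlap the other windows, while the windows for CTGA and ACA do overlap.

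In the box C/D class, U3 is shown as the most abundant member, SNORD17 as the second, SNORD104 as the shortest and SNORD14E as a U14 copy. Their positions were SNORD3A (chr17:19188016-19188232, plus strand), SNORD17 (chr20:17962710-17962946, minus strand), SNORD104 (chr17:64146083-64146152, plus strand) and SNORD14E (chr11:123058077-123058161, minus strand) in GRCh38. A pair of SNORD116 copies is added because only 1 base separates them: SNORD116-18 (chr15:25085385-25085476, plus strand) and SNORD116-19 (chr15:25086527-25086618, plus strand).
SNORD3A: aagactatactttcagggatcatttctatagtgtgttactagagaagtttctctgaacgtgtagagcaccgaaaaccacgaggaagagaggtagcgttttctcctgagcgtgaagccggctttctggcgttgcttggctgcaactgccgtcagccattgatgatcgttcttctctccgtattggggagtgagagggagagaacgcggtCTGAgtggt
SNORD17: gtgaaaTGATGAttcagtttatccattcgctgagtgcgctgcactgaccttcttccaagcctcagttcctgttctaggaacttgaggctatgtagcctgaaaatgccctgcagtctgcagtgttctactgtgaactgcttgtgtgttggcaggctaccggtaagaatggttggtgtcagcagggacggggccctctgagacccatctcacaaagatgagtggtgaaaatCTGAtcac
SNORD104: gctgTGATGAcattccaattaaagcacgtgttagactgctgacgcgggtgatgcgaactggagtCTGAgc
SNORD14E: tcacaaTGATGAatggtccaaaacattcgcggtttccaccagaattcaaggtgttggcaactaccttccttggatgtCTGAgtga
SNORD116-18: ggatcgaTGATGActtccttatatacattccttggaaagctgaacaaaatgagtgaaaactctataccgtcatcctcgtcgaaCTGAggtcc
SNORD116-19: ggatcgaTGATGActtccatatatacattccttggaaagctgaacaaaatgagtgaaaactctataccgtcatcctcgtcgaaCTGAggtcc

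In the box H/ACA class the leading members were SNORA73B (U17) and SNORA12. They lie at SNORA73B (chr1:28508559-28508762, plus strand) and SNORA12 (chr10:100237156-100237302, minus strand) in GRCh38.
SNORA73B: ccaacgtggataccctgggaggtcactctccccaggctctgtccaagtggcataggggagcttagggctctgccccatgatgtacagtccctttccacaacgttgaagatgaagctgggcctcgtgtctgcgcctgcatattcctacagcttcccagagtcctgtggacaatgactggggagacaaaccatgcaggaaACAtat
SNORA12: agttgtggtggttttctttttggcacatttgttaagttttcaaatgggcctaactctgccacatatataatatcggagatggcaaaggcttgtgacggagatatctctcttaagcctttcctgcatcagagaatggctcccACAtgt

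The Cajal body RNAs shown are the leading pair, SCARNA7 and SCARNA10, by the first 120 of their 330 bases with box C, SCARNA5 whole with both boxes, and SCARNA21 and the lowest member, SCARNA22, which end in ACA. The GRCh38 positions of what is printed were SCARNA7 (chr3:160515117-160515236, minus strand), SCARNA10 (chr12:6510222-6510341, plus strand), SCARNA5 (chr2:233275727-233276002, plus strand), SCARNA21 (chr17:7906122-7906260, plus strand) and SCARNA22 (chr4:1974636-1974760, plus strand).
SCARNA7: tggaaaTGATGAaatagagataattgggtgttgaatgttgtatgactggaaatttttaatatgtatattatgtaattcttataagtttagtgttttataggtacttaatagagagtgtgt
SCARNA10: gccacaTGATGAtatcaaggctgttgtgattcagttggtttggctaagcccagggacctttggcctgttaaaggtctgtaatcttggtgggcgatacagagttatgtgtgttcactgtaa
SCARNA5: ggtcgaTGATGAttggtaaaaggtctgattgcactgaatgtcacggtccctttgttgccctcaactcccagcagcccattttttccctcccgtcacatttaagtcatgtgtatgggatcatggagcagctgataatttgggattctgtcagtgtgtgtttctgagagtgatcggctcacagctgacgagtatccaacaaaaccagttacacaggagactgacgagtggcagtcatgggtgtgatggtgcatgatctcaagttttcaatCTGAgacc
SCARNA21: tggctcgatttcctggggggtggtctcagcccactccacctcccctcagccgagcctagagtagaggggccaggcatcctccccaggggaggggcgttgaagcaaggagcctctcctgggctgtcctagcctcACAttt
SCARNA22: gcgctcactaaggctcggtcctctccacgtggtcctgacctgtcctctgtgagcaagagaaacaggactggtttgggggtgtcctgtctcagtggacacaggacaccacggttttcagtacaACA

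The letters mostly followed the class names. Box C letters were found in 15 of 19 box C/D members (78.9%), the exceptions being the 4 SNORD3 rows, and box D letters in 18 of 19 (94.7%), the exception being SNORD108. Among the 248 other box C/D rows with a sequence the shares were 66.9% and 86.3%. The ACA letters stood near the end of 31 of 32 box H/ACA members with a sequence (96.9%), all but SNORA74D, and of 119 of 151 other box H/ACA rows (78.8%). They were also found in 3 of 19 box C/D members (15.8%) and 13 of 248 other box C/D rows (5.24%). Box D letters were found in 1 of 32 box H/ACA members and 5 of 151 other box H/ACA rows. In the Cajal body class, SCARNA5, SCARNA6, SCARNA7 and SCARNA10 held both box C and box D letters, SCARNA13, SCARNA21 and SCARNA22 held ACA, and SCARNA17 held none of them in these windows.

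The 61 members took 0.502% of the counted reads in replicate 1 and 0.531% in replicate 2, and most of this was 1 RNA. Box C/D members held 0.421% of reads in replicate 1 (exact binomial 95% interval 0.419 to 0.423%) and 0.437% in replicate 2 (0.435 to 0.439%), a mean of 0.429 ± 0.0112% (SD, n = 2). Cajal body members held 0.0498% in replicate 1 (0.0491 to 0.0505%) and 0.0547% in replicate 2 (0.0539 to 0.0554%), a mean of 0.0522 ± 0.00344%. Box H/ACA members had the smallest share although they were the most numerous, with 0.0305% in replicate 1 (0.0300 to 0.0311%) and 0.0397% in replicate 2 (0.0391 to 0.0403%), a mean of 0.0351 ± 0.00647%. SNORD3A alone made up 94.4% of the box C/D member reads in replicate 1 and 93.6% in replicate 2. Without it box C/D members held 0.0237% of reads in replicate 1 and 0.0280% in replicate 2, below both other classes with all their members. With the leading member left out of every class, box C/D stood above box H/ACA, which then held 0.0169% and 0.0215%, and below the Cajal body class, which held 0.0332% and 0.0374%. The ratio of box C/D to box H/ACA member reads was 13.8 in replicate 1 and 11.0 in replicate 2 with SNORD3A, and 0.778 and 0.706 when SNORD3A alone was left out.

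By the typical member, the Cajal body RNAs stood highest. Their median was 53.0 ± 5.48 CPM (SD of the libraries' medians, n = 2), against 2.89 ± 0.253 CPM for box C/D and 3.15 ± 0.722 CPM for box H/ACA members. Per length, in TPM (counts divided by the deposited exon length and scaled to a common sum), the medians were 222 ± 5.03 for Cajal body, 40.4 ± 2.08 for box C/D and 34.3 ± 5.56 for box H/ACA members. A level of 10 CPM or more was reached by 7 of 9 Cajal body members, 4 of 19 box C/D members and 5 of 33 box H/ACA members. The libraries' medians of the box C/D and box H/ACA members overlapped in CPM but not in TPM, while those of the Cajal body members lay above both on either scale.

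**Figure D1:**
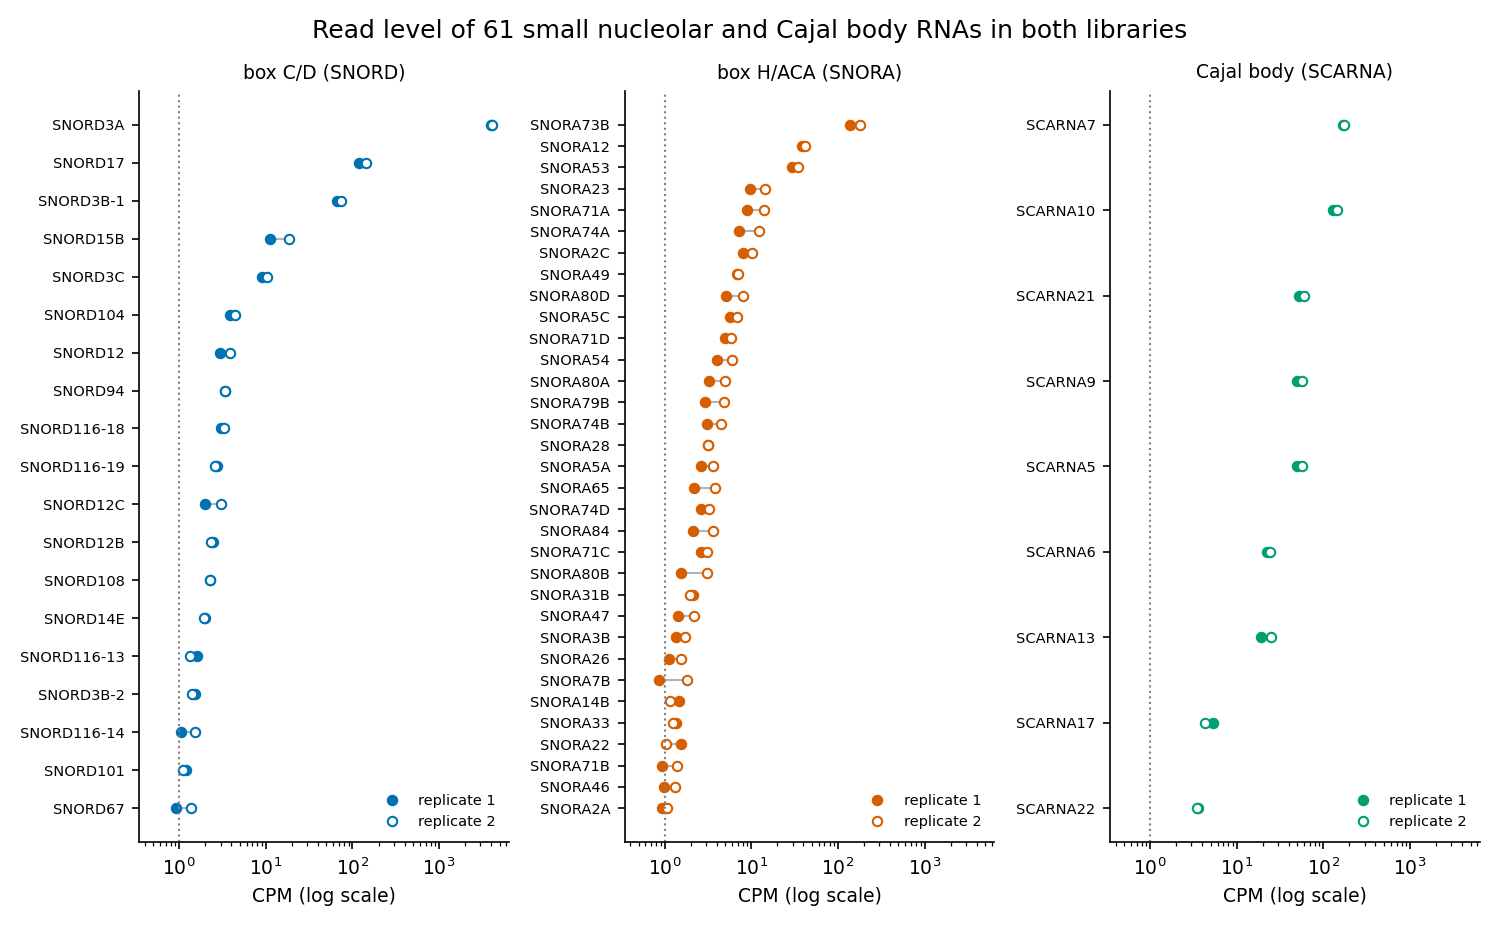
Level of each of the 61 members in CPM on a log axis, with replicate 1 as a filled and replicate 2 as an open circle, by class and in order of mean level; the dotted line is the limit of 1 CPM. SNORD3A, at a mean of 4033 CPM, stands far to the right of all others, 7 of 9 Cajal body RNAs lie above 10 CPM, and most box C/D and H/ACA RNAs lie between 1 and 10 CPM.

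Among the box C/D members, the U3 gene SNORD3A (ENSG00000263934.2, hg19 chromosome 17, 19091329 to 19092027, plus strand) had 164447 reads in replicate 1 and 152160 in replicate 2. Its level was 8544 ± 472 TPM, on a row of 699 bases; the U3 transcript printed above has 217 bases, so its level per base of U3 is understated on that scale. U3 belongs to the complex that cleaves the precursor on the way to the small ribosomal subunit. Its copy SNORD3B-1 had 2734 reads in replicate 1 and 2745 in replicate 2, and SNORD3C had 372 and 382. SNORD3B-2, whose U3 sequence is identical to that of SNORD3B-1, had only 63 reads in replicate 1 and 52 in replicate 2. Counted from the 5′ end of U3, SNORD3B-1 differs from SNORD3A by the single substitution A78C and SNORD3C by G108A, so the division of reads among these 4 rows is uncertain.

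SNORD17, a guide for large-subunit ribosomal RNA, was the second box C/D member, with 4975 reads in replicate 1 and 5355 in replicate 2 (822 ± 42.4 TPM). It lies between exons of SNX5 (hg19 chromosome 20, 17943353 to 17943589, minus strand), 517 bases from the next exon downstream. SNORD15B, a ribosomal RNA guide within RPS3, had 467 and 684 reads in replicates 1 and 2 and 149 ± 39.6 TPM, the widest relative spread of the 5 highest box C/D members. The remaining 14 members of the class lay between 1.14 and 4.15 CPM. SNORD104 in SNHG25 led these with 160 and 165 reads, or 87.6 ± 1.87 TPM. The 3 SNORD12 copies of ZFAS1 stood at 55.3 ± 6.50 TPM for SNORD12, 41.5 ± 9.57 for SNORD12C and 39.0 ± 4.12 for SNORD12B, and the spread of SNORD12C reached those of the other two. SNORD94, which guides methylation of the spliceosomal U6 RNA rather than ribosomal RNA, had 36.6 ± 3.13 TPM within PTCD3.

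SNORA73B led the box H/ACA members, with 5662 reads in replicate 1 and 6753 in replicate 2 (1148 ± 142 TPM). It is U17, an H/ACA RNA that serves precursor cleavage rather than pseudouridylation, and lies in SNHG3 (hg19 chromosome 1, 28835071 to 28835274, plus strand), 67 bases from an exon. It held 44.8% of the class's member reads in replicate 1 and 45.7% in replicate 2. SNORA12 in CWF19L1 followed with 401 ± 6.70 TPM (1582 reads in replicate 1, 1546 in replicate 2), and SNORA53 in SLC25A3 with 190.2 ± 8.17 TPM (1217 and 1294). SNORA53 shares 10.4% of its bases with exons of SLC25A3. Below them stood SNORA71A with 125.6 ± 29.8 TPM, SNORA2C with 98.2 ± 9.11 and SNORA23, a ribosomal RNA guide in IPO7, with 97.5 ± 19.5. SNORA49 had 75.7 ± 3.95 TPM, SNORA74A (U19) in MATR3 71.9 ± 21.4, SNORA80D 70.7 ± 17.0 and SNORA5C 67.9 ± 3.28. The libraries' values of SNORA74A and SNORA80D spanned those of SNORA49 and SNORA5C. The other 23 box H/ACA members lay between 1.01 and 5.37 CPM.

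The Cajal body members were led by SCARNA7 (U90, a methylation guide for the spliceosomal U1 RNA), with 6884 reads in replicate 1 and 6411 in replicate 2, or 760.0 ± 38.5 TPM. It lies in KPNA4 (hg19 chromosome 3, 160232695 to 160233024, minus strand). SCARNA10 (U85, which joins box C/D and H/ACA parts and guides changes in U5 RNA) had 5384 and 5346 reads, or 613 ± 3.32 TPM, in NCAPD2 (hg19 chromosome 12, 6619388 to 6619717, plus strand). SCARNA21 in CHD3 had 599 ± 8.01 TPM, close to SCARNA10 on this scale although its row is 139 bases long against 330. The composite RNAs SCARNA5 and SCARNA6 both lie in introns of ATG16L1, and had 284 ± 8.10 and 129.5 ± 2.17 TPM. SCARNA9, a guide for U2 RNA within CEP295, had 222 ± 5.03 TPM, and SCARNA13 (U93) in SNHG10 had 117 ± 14.0. SCARNA13 shares 46.2% of its bases with exons of GLRX5. The lowest were SCARNA17 with 49.9 ± 11.3 TPM (221 reads in replicate 1, 160 in replicate 2) and SCARNA22 with 41.5 ± 3.65 (146 and 129). SCARNA22 (ACA11) is carried in an intron of NSD2, 26 bases from an exon.

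The limit of 1 CPM cut a continuous range. Just inside stood SNORA2A at 1.01 CPM, SNORD67, another U6 guide, at 1.14 and SNORA46 at 1.15. Just outside were SNORA50A at 0.997, SNORA11 at 0.949 and SNORD46 at 0.946 CPM. In all, 168 rows had reads but stayed below the limit, among them SCARNA1 at 0.867 and SCARNA3 at 0.563 CPM.

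The rows without reads were mostly box C/D, and many lay under exons of other genes. No read in either library fell on 173 of 280 box C/D rows, 90 of 193 box H/ACA rows and 1 of 20 Cajal body rows. That single Cajal body row, SCARNA12, has 88.5% of its bases within exons of PHB2. Exons of other rows covered 85 named rows whole, 51 box C/D and 34 box H/ACA, and all 85 had 0 reads. The counter's default leaves out reads that touch several genes, so a 0 on these rows gives no level of the RNA. Overlap was not the whole of it: of 383 rows with no overlap, 169 also had 0 reads, 118 of them box C/D and 51 box H/ACA. The 118 included 44 SNORD115, 30 SNORD114 and 9 SNORD113 rows, numbered copies that lie in imprinted regions. Reads that map to more than 1 place are also left out by default, so a 0 on such copies does not show absence.

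In each class the median member was longer than the median of the other named rows. The median row length was 92 bases for box C/D members against 80 for other box C/D rows, 135 against 133 for box H/ACA and 275 against 136 for Cajal body rows. Below 100 bases, 11 of 261 rows were members (4.21%), and of rows of 200 bases or more 14 of 21 were (66.7%). Leaving out rows with at least 50% of their bases under other exons, the counts were 11 of 208 (5.29%) and 14 of 20 (70.0%). Across the 61 members Spearman's rho between length and mean CPM was 0.63, it was 0.65 over the 57 members that are not SNORD3 rows, and 0.41 between length and TPM. It was lower within the large classes, at 0.42 over 19 box C/D and 0.43 over 33 box H/ACA members, and was 0.64 over 9 Cajal body members. Over the 164 named rows with 10 or more reads, whatever their CPM, it was 0.41. All points share the same libraries, and a longer row collects more reads for the same number of molecules, so the CPM value is a description only. Whether library preparation kept short RNAs less well was not tested.

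**Figure D2:**
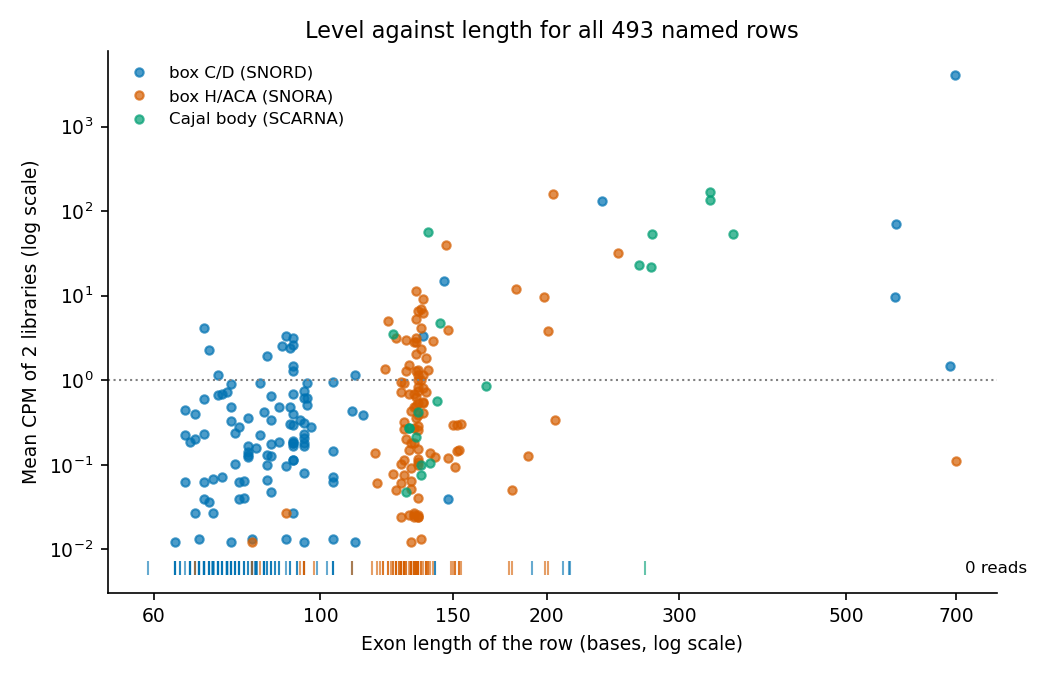
Mean CPM against exon length in bases, both on log axes, for all 493 named rows, coloured by class; ticks at the bottom are the 264 rows with 0 reads and the dotted line is 1 CPM. Rows under 100 bases, nearly all box C/D, reach at most 4.15 CPM, whereas 14 of 21 rows of 200 bases or more lie above the line.

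Of the 61 members, 56 lay on the same strand within the span of 42 host genes, and the other 5 were the 4 SNORD3 rows and SNORA31B. RPS12 hosted members of both the box C/D and the box H/ACA class, SNORD101 and SNORA33. Per length, all Cajal body members stood above their hosts. Their median log2 ratio to the host, in TPM, was 4.24 ± 0.09 (SD of the libraries' medians, n = 2) and 9 of 9 were higher than the host. This did not hold for every Cajal body row below the limit. SCARNA1 had 5.68 TPM in replicate 1 and 9.54 in replicate 2, against 29.4 and 26.0 for its host PPP1R8. SCARNA3 had 5.54 and 6.07 TPM, against 31.0 and 25.4 for its host COP1. The other rows below the limit are not set against their hosts here. Box C/D members had a median log2 ratio of 0.75 ± 0.16, with 8 of 15 above the host, and box H/ACA members 0.34 ± 0.22, with 18 of 32 above. A gene-level count cannot tell the trimmed RNA from the same stretch of an unspliced host transcript, and no test of the ratios was made, since the level chose the members.

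The extremes were far apart. SCARNA17 had 49.9 TPM against 0.946 for SNHG22, a log2 ratio of 5.71 ± 0.56, and SCARNA7 had 760.0 TPM against 18.1 for KPNA4, a ratio of 5.41 ± 0.23. The level of SNHG22 rested on only 36 reads in replicate 1 and 45 in replicate 2. SNORD17 stood 30.8-fold above SNX5 per length. At the other end, SNORA33 had 14.8 TPM against 748 for RPS12, a log2 ratio of -5.67 ± 0.17, and SNORD14E had 34.2 TPM against 1225 for HSPA8, a ratio of -5.13 ± 0.34. All these ratios, and the class medians, depend on the deposited exon length of the host. In CPM the log2 ratio was -8.23 both for SNORA33 to RPS12 and for SNORA3B to RPL27A. In TPM the ratio of SNORA3B to RPL27A was -2.46. Spearman's rho between the CPM of member and host was -0.02 over 56 members, which share libraries and in part hosts. In CPM, where hosts gain from their longer exons, only 5 members exceeded their host, all of the Cajal body class.

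**Figure D3:**
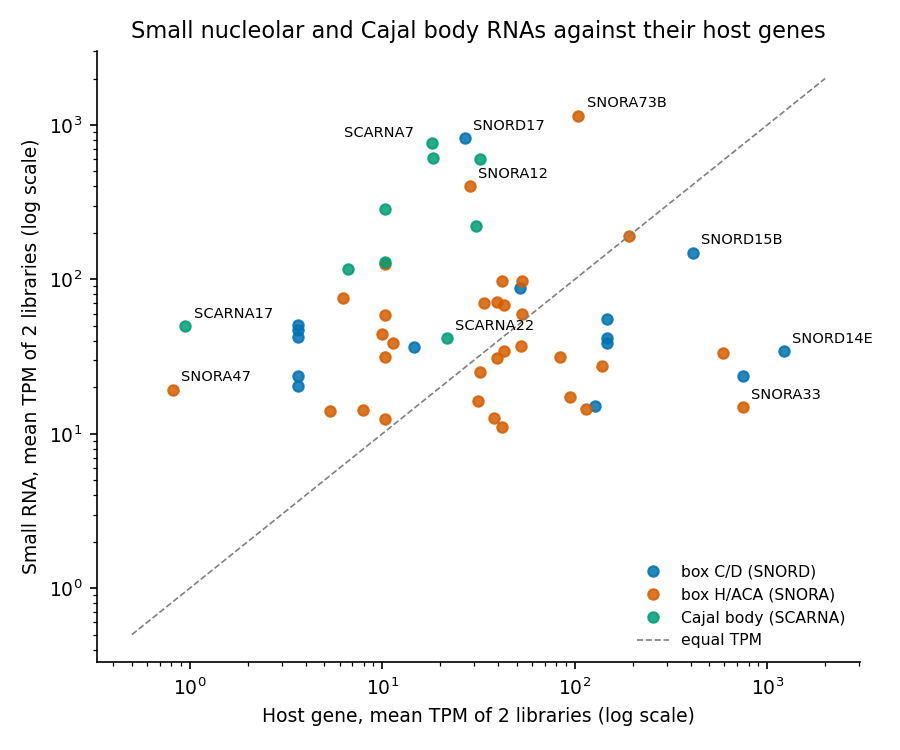
Mean TPM of each of the 56 members with a host gene (vertical, log axis) against mean TPM of the host (horizontal, log axis), coloured by class; the dashed line marks equal TPM. All 9 Cajal body RNAs lie above the line, and RNAs of the highly expressed hosts RPS12 and HSPA8 lie far below it.

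Of the 42 hosts, 8 carried more than 1 member, and the highest member stood above the lowest by under 2-fold in TPM in 3 of them (ZFAS1, RPS12 and TBRG4), by 2 to 3-fold in 3 (ATG16L1, MATR3 and SNHG14) and by more in KANSL2 (8.89-fold) and SNHG17 (10.02-fold). SNHG17 carried 4 rows and all 4 were members: SNORA71A with 125.6 ± 29.8 TPM, SNORA71D with 59.1 ± 2.37, SNORA71C with 31.5 ± 1.58 and SNORA71B with 12.5 ± 2.53. These guides have nearly equal lengths (134 to 137 bases) and came from a host at 28.9 CPM in replicate 1 and 29.5 in replicate 2. In MATR3, SNORA74A had 71.9 ± 21.4 TPM and SNORA74D 30.8 ± 2.26. In TBRG4, SNORA5C had 67.9 ± 3.28 TPM and SNORA5A 34.3 ± 5.56. At the narrow end, the 3 SNORD12 copies of ZFAS1 stayed within 1.42-fold in TPM, and in RPS12 SNORD101 had 23.5 ± 3.30 TPM and SNORA33 14.8 ± 2.06.

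The host with most rows was SNHG14, the long noncoding transcript of the imprinted Prader-Willi region on chromosome 15, where only the paternal copy is normally active. It spanned 72 named rows, of which 5 were members and 46 had 0 reads, while SNHG14 itself stood at 84.4 CPM in replicate 1 and 75.0 in replicate 2. The members were the orphan guide SNORD108 with 93 and 84 reads and 4 copies of SNORD116. SNORD116-18 had 124 reads in replicate 1 and 123 in replicate 2, SNORD116-19 had 112 and 95, SNORD116-13 had 66 and 50, and SNORD116-14 had 43 and 56. Within the span of SNHG14, 24 of 25 SNORD116 rows had reads, whereas 44 of 45 SNORD115 rows had 0. By name alone the table held 28 SNORD116 rows, 26 of them with reads, and 46 SNORD115 rows, 44 of them with 0, since a few rows of these names lie on other chromosomes. SNORD116-17, identical in sequence to SNORD116-19, had 4 reads in replicate 1 and 5 in replicate 2. With the counter's defaults, reads that map to more than 1 place are left out, so counts on repeated copies can be too low. A 0 on the SNORD115 rows thus does not show that the RNA was absent. How alike the SNORD115 copies are was not measured. Printed side by side, SNORD116-18 and SNORD116-19 differ by T19A, counted from the 5′ end.

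The next hosts by number of rows had 2 or fewer counted reads of their own in either library. ENSG00000271417 spanned 15 rows and MEG8, a maternally expressed RNA of the imprinted region on chromosome 14, spanned 11; none of these had a read, and MEG8 had 2 reads in replicate 1 and 0 in replicate 2. Over that imprinted region all 9 SNORD113 and all 30 SNORD114 rows had 0 reads. The limit on reads that map to more than 1 place holds for these rows too.

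The list made for precursor cleavage RNAs included the highest row of the set and several rows without reads. These data do not show that each listed RNA, SNORD13 among them, serves cleavage. Of 15 listed RNAs 12 rows were matched by name (not SNORD3D, SNORD22 and SNORA73A), and 6 were members: the 4 SNORD3 rows, SNORA73B and SNORD14E. SNORD14E, the U14 copy in HSPA8, had 83 reads in replicate 1 and 71 in replicate 2. SNORD14A in RPS13 had 16 and 22 reads and stayed below the limit. SNORD118 (U8), SNORD13, SNORD14B, SNORD14C and SNORD14D had 0 reads, each lying whole under exons of other rows. The same held for the RPL13A introns, whose SNORD32A, SNORD33, SNORD34 and SNORD35A rows were covered whole and had 0 reads although RPL13A had 34279 reads in replicate 1 and 32102 in replicate 2.

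Genes of the partner proteins matched by name were all at 1 CPM or more in both libraries. In the box C/D complex, the methyltransferase FBL had 70.6 ± 2.66 TPM, the scaffold proteins NOP56 and NOP58 54.4 ± 0.191 and 37.4 ± 3.71, and the RNA-binding SNU13 43.1 ± 3.28. In the box H/ACA complex, the pseudouridine synthase DKC1 had 36.6 ± 1.37 TPM, NOP10 168 ± 7.57, NHP2 42.9 ± 0.725 and GAR1 4.73 ± 1.13. GAR1 was thus the lowest of these 8 by a wide margin per length. Among Cajal body genes, NOLC1 had 74.1 ± 11.6 TPM, the marker coilin (COIL) 27.7 ± 3.43, the cap methylase TGS1 17.9 ± 2.63 and WRAP53, which carries H/ACA RNAs to the Cajal body, 7.66 ± 1.22. SMN1 had 2.27 ± 0.612 TPM, but its near-identical copy SMN2 makes this uncertain.

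Assembly factors covered a wide range. The ATPases RUVBL2 and RUVBL1 had 67.5 ± 5.40 and 32.7 ± 1.54 TPM, and PIH1D1 of the same chaperone complex had 21.7 ± 0.321. NOPCHAP1, a chaperone of NOP58, had 19.9 ± 1.66 TPM. The box C/D factors ZNHIT6 and NUFIP1 had 6.29 ± 0.455 and 4.80 ± 0.804, and the box H/ACA factors SHQ1 and NAF1 8.11 ± 0.743 and 2.10 ± 0.0713. TERC, the telomerase RNA, which ends in an H/ACA domain, had 491 ± 22.2 TPM. It lay between SCARNA21 and SNORA12 on that scale.

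Close copies were searched for the members only, among the 469 of 493 named rows with a sequence and only at similar length. Of the 59 members with a sequence, 36 had no other row above 80% identity among those compared, and 9 had at least 1 at 95% or more. Among these 9, SNORA7B has a copy at 98.6% identity, SNORA7A, whose row lies whole under RPL32 exons and had 0 reads. SNORA22 has the copy SNORA22C at 98.5% identity, with 24 reads in replicate 1 and 25 in replicate 2 against 63 and 39 for SNORA22.

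The replicate libraries gave nearly the same order of members, with Spearman's rho of 0.96 over 61 members, but the members were shifted to one side. Each row was tested with an exact two-sided binomial test on the counts at the library sizes given by edgeR's TMM scaling, with Benjamini-Hochberg adjustment over 23006 rows of 10 or more reads. The test sets these libraries, not conditions, against counting error. It called 29.2% of all rows tested, 14.5% as higher in replicate 2 and 14.8% as higher in replicate 1. Of the 61 members it called 29 (47.5%) at an adjusted p under 0.05, and all 29 were higher in replicate 2. The members were chosen at 1 CPM or more, whereas rows were tested from 10 reads on. The 2 shares are therefore not matched for read depth. None of the members was called higher in replicate 1, although 12 had a ratio below 0. At an unadjusted p under 0.05 in this test, 33 of 61 members passed, as did 8857 of the 23006 rows tested.

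By class, the calls were 18 of 33 box H/ACA members (54.5%), 6 of 9 Cajal body members (66.7%) and 5 of 19 box C/D members (26.3%). Over all rows tested the share was 29.2%. These shares were not matched for read depth, which sets how small a difference can be called. The median log2 ratio of replicate 2 over replicate 1 was 0.43 for box H/ACA, 0.16 for Cajal body and 0.16 for box C/D members, and 0.01 over all rows tested. Whether the classes differ in this was not tested. The 56 members with a host had a median of 0.28, against -0.01 for their hosts. TERC was also higher in replicate 2, with 195 CPM against 165 in replicate 1. Reads on genes without a name in the tables used made up 13.4% in replicate 2 and 11.4% in replicate 1; their part in the shift was not tested. Of the immune markers, PTPRC had 17 reads in replicate 2 and 0 in replicate 1, for a summed level of 0.457 and 0 CPM, and CD3E and CD68 had 0 in both. Of the mesenchymal and fibroblast markers, whose summed level was 8.23 CPM in replicate 2 and 6.70 in replicate 1, COL1A1 was higher in replicate 2 (exact binomial test, adjusted p = 0.0326), VIM had 3 reads in each and PDGFRB 0 in both. Of the basal markers TP63 was lower in replicate 2 (log2 ratio -0.84), KRT5 had 6 reads in replicate 2 and 2 in replicate 1, and KRT14 had 0 and 2. The endothelial marker VWF had 12 reads in replicate 2 and 0 in replicate 1, and PECAM1 was not matched by name. By the exact binomial test, PTPRC (adjusted p = 3.14e-05) and VWF (adjusted p = 0.00089) were also higher in replicate 2. TP63 was called lower there (exact binomial test, adjusted p = 0.0319). The part of such cells in the shift was not tested.

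The largest differences at 10 CPM or more were those of SNORD15B, with 18.4 CPM in replicate 2 against 11.3 in replicate 1 (log2 ratio 0.72, 95% interval 0.55 to 0.90, exact binomial test, adjusted p = 1.86e-15), and of SNORA71A, with 14.0 CPM in replicate 2 against 8.97 in replicate 1 (0.66, 0.47 to 0.86, adjusted p = 3.10e-10). SNORA23 had 14.4 CPM in replicate 2 against 9.77 in replicate 1, and SCARNA13 24.9 against 18.9. SNORA73B, with its far higher count, had 182 CPM in replicate 2 against 137 in replicate 1, a log2 ratio of 0.43 with a 95% interval of 0.38 to 0.48. SNORD3A differed little, at 4091 CPM in replicate 2 against 3975 in replicate 1, although its count put even a log2 ratio of 0.06 past the test. SCARNA17, SCARNA22, SNORD94 and the 4 SNORD116 members were not called. HSPA8 had 3213 CPM in replicate 2 against 4723 in replicate 1, while SNORD14E in its intron had 1.91 and 2.01 CPM in the same libraries.

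**Figure D4:**
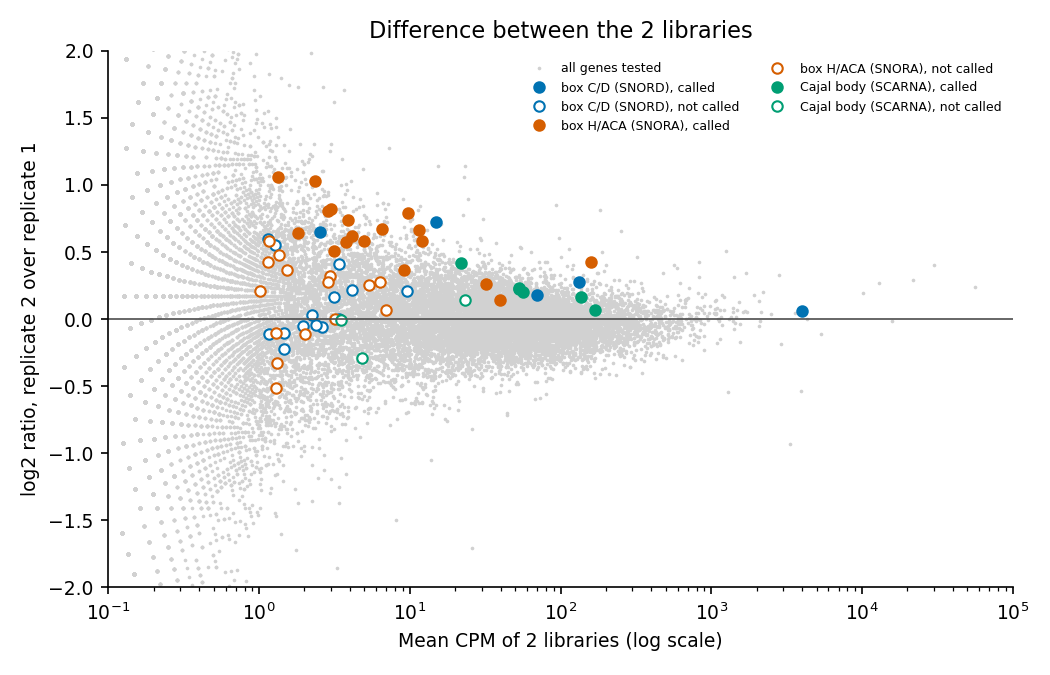
Log2 ratio of replicate 2 over replicate 1 against mean CPM (log axis) for the 23006 rows tested, in grey, and the 61 members by class, filled where called at an adjusted p under 0.05 and open otherwise; 659 grey rows lie beyond the limits of 2 on the vertical axis. All 29 filled circles lie above 0, and the grey rows spread to both sides.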

How the data were processed

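Stranded total RNA libraries, depleted of ribosomal RNA, were made from 2 replicates of T47D cells with ESR1 Y537S and control siRNA, per the labels' protocols. The authors deposited raw read counts per gene; per the file headers these are featureCounts 2.0.2 whole-number counts over exons of GENCODE release 19, with no strand, paired-end, multimapping or overlap option recorded. Reads of overlapping genes on opposite strands therefore cannot be told apart, and with the counter's defaults a read that maps to more than 1 place or touches more than 1 gene is left out. The submitters' processing notes name HISAT2, with no version, and the build hg19 (GRCh37). Table columns were assigned to samples by the cell line, the mutated residue and the replicate in their names. Another 8 columns of per-sample values match no sample described here and were not used, so the classes were compared over 2 libraries only. Spike-in RNA was added, per the labels' protocols, and was not used.

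Totals were 41370662 reads in replicate 1 and 37198274 in replicate 2. CPM was taken over all 57820 genes and TPM with the deposited exon lengths. Symbols were found for 39538 identifiers (68.4%); the others held 11.4% and 13.4% of reads in replicates 1 and 2. Intervals of shares are exact binomial 95% intervals. Intervals, p-values and floors reflect counting error alone, because without molecular identifiers several reads can stem from 1 molecule. The libraries were compared row by row as given in the results, with 0.5 reads added to each count in the log2 ratio, TMM factors from edgeR 4.0.16 and size factors from DESeq2 1.42.0 as the alternative; the code was tested on simulated data. A chi-square statistic of 15.6 per gene between the libraries showed more spread than counting error alone would give. It cannot tell whether the libraries came from separate cultures. Hosts were genes on the same strand whose span holds a row, from the deposited exon coordinates. Sequences were read from GENCODE 29 transcripts and aligned pairwise with Biopython 1.88. With 1 group there was no contrast for a count model and no test between conditions.

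Named in the text were the 12 box C/D, 10 box H/ACA and 8 Cajal body members of highest mean CPM, up to 5 members with the largest differences between libraries in each direction among those called at 10 CPM or more, the 3 rows on either side of the limit, and the RNAs and proteins of fixed role lists. Names outside this rule were chosen after their values were seen. The members and lists were chosen with earlier results of these data known. Alternatives covered the limit, the denominator, overlapping rows, the scaling and each library alone.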

Additional observations from a re-analysis of the deposited data

How the results depend on the processing

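The number of members depended on the limit: it was 23 at a mean of 5 CPM or more, 56 at 1 CPM in each library and 91 at 0.5 CPM, and 60 to 67 with either library alone. Shares of reads moved most without the leading RNA of each class, to 0.0259% for box C/D, 0.0192% for box H/ACA and 0.0353% for Cajal body members. With the 10 most abundant rows left out of the total they were 0.514%, 0.0421% and 0.0626% in the same order. With 1 library left out they ranged over 0.421 to 0.437% for box C/D, 0.0305 to 0.0397% for box H/ACA and 0.0498 to 0.0547% for Cajal body members. The count of members called different between the libraries was 29, and 26 to 29 under the alternatives. It was 28 with DESeq2 size factors, 27 with column sums alone and 29 with all rows of at least 1 read. It was 27 without the 2 overlapping members. Without the 9 members at 95% or more identity to another row, an alternative added after seeing the data, it was 26. The last 2 counts are out of fewer than 61 members. No member was called higher in replicate 1 under any of the alternatives. The member to host log2 ratio of 1.03 in TPM was -4.71 in CPM, which by its construction does not divide by exon length. Depth limits the rows under about 10 reads, where a count of 0 allows 3 reads per library. No paired analysis was possible because there was 1 group. Quasi-likelihood and DESeq2 tests had no contrast and were not run.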

Other observations

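Several host genes of ribosome production and translation carried many rows but no members. All 4 rows within RPL4, all 5 within EIF4A2 and 7 of 8 within TAF1D lay whole under exons of other rows and had 0 reads, while RPL4 itself stood at 1194 CPM in replicate 1 and 1232 in replicate 2. In NOP58, whose protein is part of the box C/D complex, none of 4 rows lay whole under other exons, 1 had 0 reads, and the highest reached 0.489 CPM. The 3 rows within NCL, the nucleolin gene, reached at most 0.413 CPM, while the host stood at 335 CPM in replicate 1 and 336 in replicate 2. These hosts were picked after their values were seen.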
